A study of Rattus norvegicus with 20 samples.

Results

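This account concerns islets that received an adenovirus carrying Nr4a1, set against islets that received the same kind of virus carrying green fluorescent protein (GFP). The arrays were chosen by their titles, 5 titled NR4A1 and 5 titled GFP, which are 10 of the 20 arrays of the series. The other 10 are 5 arrays of islets given an Nr4a3 virus and 5 of untreated islets. All islets came from male Wistar rats aged 8 weeks, were kept in RPMI with 10% serum and 8 mM glucose, and were collected at 48 h. Virus, where given, was present for 18 h. GFP was the virus control, so the comparison asks what the Nr4a1 virus changed beyond infection and culture. The treatment text of the labels names viruses for βgal and Nkx6.1 instead, so the groups here follow titles and characteristics. The titles call the 5 samples of each group biological replicates. Neither the promoter that drives each virus nor the animals behind each sample are stated, so a p measures the spread between these samples.

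Nr4a1, also called Nur77, is an orphan nuclear receptor of the steroid receptor superfamily. It is an immediate early gene whose protein binds DNA as a monomer at the NBRE, an extended half-site, and it takes part in the control of metabolism, inflammation and cell survival. Pancreatic islets are small clusters of endocrine cells, mostly insulin-producing beta cells with alpha, delta and PP cells, threaded by capillaries and surrounded by exocrine tissue. The arrays measured whole islets, so fewer cells of a type and less RNA per cell cannot be told apart.

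Values are log2 of the deposited intensity, with 1 probe set for each of 14217 genes, the brightest over all 20 arrays. A gene was called, or is said to have risen or fallen, at an adjusted p under 0.05 with limma. The Nr4a1 probe set itself read 6.07, 5.82, 6.06, 5.91 and 6.11 (log2 intensity, replicates 1 to 5) in the arrays labelled Nr4a1, against 6.03, 6.01, 5.98, 6.20 and 6.12 in the GFP arrays. The groups overlapped, and the log2 difference was -0.07 ± 0.09 (SE; adjusted p by limma = 0.775), so this probe set does not mark the arrays labelled Nr4a1. Which part of the transcript the virus carried is not stated in the labels, and a probe set outside that part checks nothing. The probe set of Nkx6-1, the factor that the treatment text names, read 9.80, 10.35, 10.37, 10.33 and 10.02 in the arrays labelled Nr4a1, against 10.75, 10.43, 10.68, 10.54 and 10.60 in the GFP arrays, which differ by -0.42 ± 0.12 (log2, limma adjusted p = 0.0296). Of the NR4A family, Nr4a2 read 7.02, 6.71, 6.95, 6.74 and 6.78 in the arrays labelled Nr4a1, against 6.79, 6.86, 6.93, 7.10 and 6.74 in the GFP arrays (log2 intensity). Nr4a3 read 6.01, 6.15, 5.87, 6.13 and 6.18 in the arrays labelled Nr4a1, against 5.58, 5.83, 5.45, 5.52 and 5.79 in the GFP arrays. It rose by 0.44 ± 0.10 (log2 with SE; adjusted p by limma = 0.00562) by its brightest probe set, without overlap. Its call ended when a gene's probe sets were averaged, and in the fit with the acinar mean described next.

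Endocrine markers were bright in every array. Ins1 lay between 14.95 and 14.97 in the Nr4a1 arrays, against 14.94 to 15.01 in the GFP arrays (log2 intensity), and was the brightest gene of each of the 10 arrays, so that a difference there would be compressed. The mean of 41 acinar cell genes, which encode digestive enzymes and their helpers, was 9.04 to 9.94 in the Nr4a1 arrays, against 6.83 to 8.53 in the GFP arrays (log2 intensity). It ran from 6.84 to 9.47 in untreated arrays, where replicate 5 alone reached the Nr4a1 range. The difference between 3′ and 5′ control probe sets of GAPDH, a sign of RNA integrity, was 0.271 to 0.357 in the Nr4a1 arrays, against 0.499 to 0.739 in the GFP arrays (log2). The same measure for actin overlapped, with a range of 1.498 to 2.02 for Nr4a1 against 1.73 to 2.21 for GFP (log2). The GAPDH measure moves with the groups in every difference below, and its part was not tested. Nr4a3 replicate 2 stood apart, with a mean correlation across genes of 0.941 with the other arrays against 0.982 to 0.989 for the rest, and it enters here through the shared estimate of spread. List counts that moved by over 1.5 times without it are given beside them.

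Of all genes, 876 rose (6.16%) and 363 fell (2.55%), and without Nr4a3 replicate 2 the counts were 1739 and 975. Outside the acinar and cell cycle lists, which hold 223 measured genes, 756 rose and 361 fell. Among these, 103 rose and 3 fell by at least 2-fold. All 5 Nr4a1 arrays lay above all 5 GFP arrays in 1501 genes (10.6%) and below them in 801 (5.63%). The median log2 difference over all genes was -0.0013. The spread between arrays was small for most genes, with a median SD of 0.12 over Nr4a1 arrays and 0.11 over GFP arrays (log2, n = 5 each).

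The data bear on promoters only through genes that moved together, and the NBRE is the element that the NR4A receptors are known for. Its letters AAAGGTCA, or TGACCTTT on the other strand, were searched in windows from 250 bases before to 50 bases after the starts that RefSeq gives for GRCr8. They were present for 15 of 730 risen genes with a window (2.05%), 5 of 293 fallen genes (1.71%) and 120 of 10677 genes that did neither (1.12%), and for 1.2% of all genes tested with a window. The shorter half-site AGGTCA or TGACCT, which lies inside the NBRE and so overlaps it, was present for 14.2% of risen, 12.6% of fallen and 13.7% of all genes. Among the 20 largest rises, 14 genes had a window and 2 of them, Gas2 and Ephx1, held the NBRE letters. Among the 20 largest falls, 18 had a window and Emcn held them. The 3 windows are shown because these are the genes of the largest changes that hold the element, which is in capitals; each is printed 5′ to 3′ on the strand of its gene. Gas2 lies on the plus strand at chr1:110618271-110618570, Ephx1 on the minus strand at chr13:95263068-95263367 and Emcn on the plus strand at chr2:228564289-228564588 (GRCr8).
Gas2: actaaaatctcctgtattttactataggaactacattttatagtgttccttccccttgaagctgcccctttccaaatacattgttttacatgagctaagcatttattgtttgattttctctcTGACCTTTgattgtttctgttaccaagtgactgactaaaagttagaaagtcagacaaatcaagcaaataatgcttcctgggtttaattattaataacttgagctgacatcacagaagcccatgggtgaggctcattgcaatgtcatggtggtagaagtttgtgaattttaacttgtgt
Ephx1: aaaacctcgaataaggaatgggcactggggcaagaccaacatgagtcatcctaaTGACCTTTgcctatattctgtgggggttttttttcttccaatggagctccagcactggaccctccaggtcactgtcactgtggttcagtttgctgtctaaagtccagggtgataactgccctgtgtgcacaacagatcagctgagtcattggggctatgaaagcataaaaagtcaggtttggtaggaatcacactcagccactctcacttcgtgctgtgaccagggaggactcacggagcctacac
Emcn: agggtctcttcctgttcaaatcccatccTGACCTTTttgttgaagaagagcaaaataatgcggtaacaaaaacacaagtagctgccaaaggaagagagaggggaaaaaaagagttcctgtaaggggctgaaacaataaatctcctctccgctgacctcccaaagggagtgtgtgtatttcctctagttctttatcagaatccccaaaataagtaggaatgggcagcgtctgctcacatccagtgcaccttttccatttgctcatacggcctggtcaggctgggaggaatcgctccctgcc
In all of them the element reads TGACCTTT, and its first base lies 128 bases before the start for Gas2, 196 for Ephx1 and 222 for Emcn. Of the other called genes described below, Gpx2, Gys2, Vegfa and Pfkfb2 also hold the element on either strand of their windows. A match of letters is a description and not a binding site.

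The 20 largest rises outside the acinar and cell cycle lists covered secreted proteins, a receptor, ion transport, enzymes and regulators of growth. In each, every Nr4a1 array was above every GFP array, because genes with overlapping groups were not eligible. They ran from 34.8-fold for Fga to 4.23-fold for Trim16, and the next rise had a log2 difference of 2.01. Of the 20, 17 were still called with the acinar mean as a covariate.

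**Figure D1:**
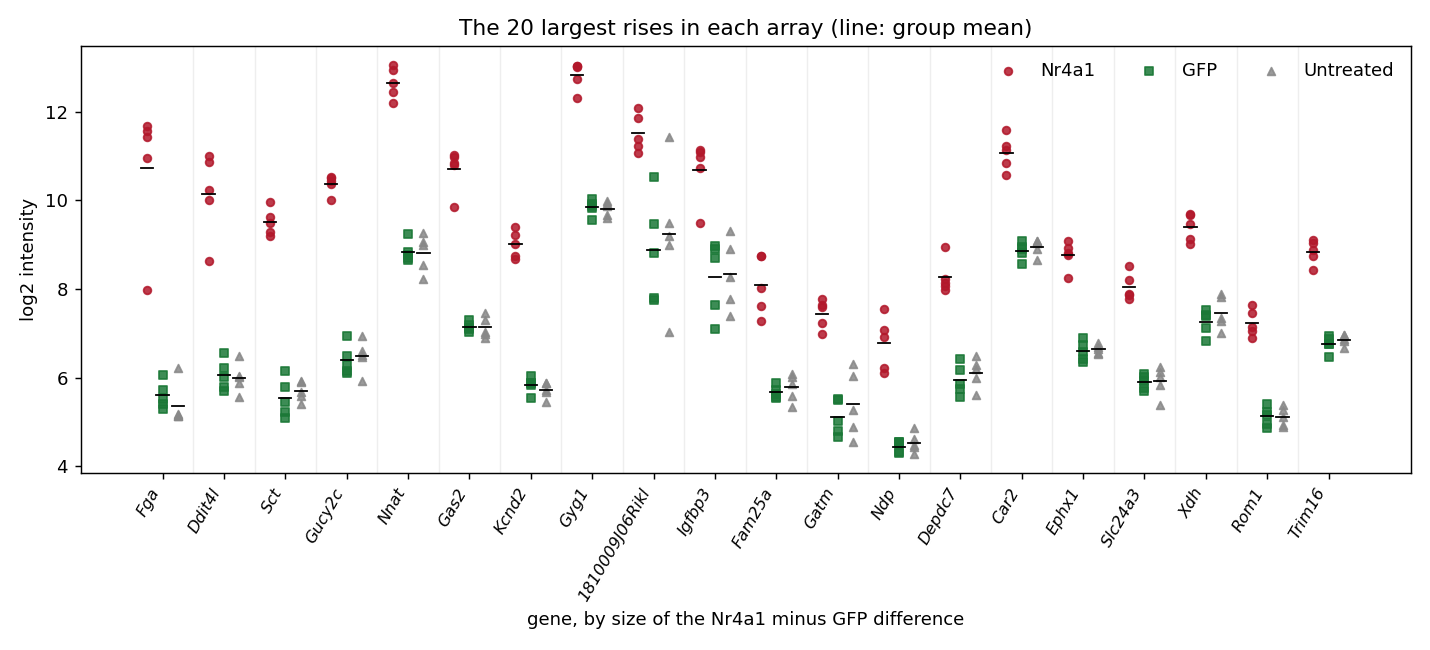
Log2 intensity of the 20 largest rises in each of the 5 Nr4a1 (circles), 5 GFP (squares) and 5 untreated (triangles) arrays; short lines are group means. Nr4a1 arrays lie above all GFP arrays in every gene shown. The lowest Nr4a1 array of Igfbp3 is at 9.50, close to an untreated array at 9.31, and for 1810009J06Rikl 1 untreated array reaches 11.43.

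The secreted proteins among the 20 are taken first. Fga, the alpha chain of fibrinogen, read 10.96, 11.55, 7.98, 11.44 and 11.68 in the Nr4a1 arrays, against 5.30, 6.07, 5.72, 5.41 and 5.51 in the GFP arrays (log2 intensity). Replicate 3 of the Nr4a1 group lay far below the other 4 and was still above every GFP array. The gene rose by 5.12 ± 0.63 (log2 with SE; adjusted p by limma = 2.68e-05), and by 4.48 with the acinar covariate. The other chains were bright in GFP arrays already. Fgg, the gamma chain, read 12.57, 12.67, 11.55, 12.69 and 12.51 in the Nr4a1 arrays, against 10.90, 11.92, 11.69, 11.03 and 11.26 in the GFP arrays (log2 intensity). Its Nr4a1 replicate 3 lay inside the GFP range, and the log2 difference was 1.04 ± 0.28 (limma adjusted p = 0.0232). Fgb, the beta chain, read 12.73, 12.92, 11.49, 13.14 and 13.06 in the Nr4a1 arrays against 10.90, 12.15, 11.73, 10.84 and 11.37 in the GFP arrays, and differed by a log2 of 1.27 ± 0.38 (limma adjusted p = 0.0389). Both Fgg and Fgb lost their calls with the acinar covariate. Leaving out any 1 of Nr4a1 replicates 1, 2 and 4 and GFP replicates 1, 4 and 5 also ended the call of Fgg (limma adjusted p up to 0.0711). For Fgb the same held for any 1 of Nr4a1 replicates 1, 2, 4 and 5 and GFP replicates 1, 3, 4 and 5 (up to 0.107). The mean of the Fgb probe sets differed by 0.42 (log2, limma adjusted p = 0.141), as its dimmer probe sets differed by 0.11 and -0.11.

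Sct, which encodes the hormone secretin, read 9.97, 9.62, 9.20, 9.49 and 9.29 in the Nr4a1 arrays, against 5.79, 5.09, 5.23, 5.44 and 6.15 in the GFP arrays (log2 intensity), with no overlap. It rose 15.7-fold (log2 3.97 ± 0.31, limma adjusted p = 7.06e-08). Igfbp3, the main carrier of insulin-like growth factors in blood, read 11.09, 11.14, 9.50, 10.99 and 10.72 in the Nr4a1 arrays, against 8.90, 7.64, 8.98, 8.70 and 7.09 in the GFP arrays. Its groups did not overlap although both spread widely, and its log2 difference of 2.42 ± 0.41 (limma adjusted p = 0.000793) was no longer called with the acinar covariate (2.16, adjusted p = 0.101). Ndp encodes norrin, a secreted ligand of the Frizzled4 receptor, and read 7.55, 6.93, 6.11, 7.06 and 6.23 against 4.52, 4.31, 4.30, 4.54 and 4.54 (log2 intensity, Nr4a1 against GFP arrays). Bmp2, the bone morphogenetic protein, read 8.42, 7.97, 7.76, 8.66 and 8.25 in the Nr4a1 arrays, against 6.29, 6.85, 6.48, 6.33 and 6.84 in the GFP arrays. Neither gene overlapped, and Bmp2 rose by a log2 of 1.65 ± 0.21 (limma adjusted p = 4e-05).

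Receptors and ion transport follow by role, not by size. Gucy2c is guanylate cyclase C, the intestinal receptor for guanylin peptides, and read 10.53, 10.43, 10.36, 10.50 and 10.01 in the Nr4a1 arrays, against 6.14, 6.28, 6.11, 6.95 and 6.49 in the GFP arrays (log2 intensity). The Nr4a1 arrays lay close together, and the log2 difference was 3.97 ± 0.27 (limma adjusted p = 1.09e-08). Pde9a, a phosphodiesterase that breaks down cyclic GMP, the messenger that Gucy2c makes, rose by 1.05 ± 0.28 with overlapping groups. Its call ended without any 1 of 5 single arrays (Nr4a1 replicate 2, 4 or 5, GFP replicate 1 or 4), at limma adjusted p up to 0.0641. In the list of 14 secretin and guanylin signalling genes these 3 rose and none fell, with a median log2 difference of 0.13. Kcnd2, a pore subunit of A-type potassium channels, read 9.39, 9.01, 8.69, 9.21 and 8.73 in the Nr4a1 arrays, against 5.87, 6.03, 5.87, 5.53 and 5.83 in the GFP arrays (log2 intensity). A second probe set of the gene differed by 2.64 ± 0.20 (log2, SE), against 3.18 ± 0.31 for the brighter. Slc24a3, a potassium-dependent sodium and calcium exchanger, differed by 2.15 ± 0.20 (limma adjusted p = 1.08e-06). Its dimmer probe set differed by 0.11 ± 0.08 and was not called.

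Among enzymes, Gyg1 was the brightest of the large rises. It encodes glycogenin, the primer on which glycogen is built, and read 13.03, 13.02, 12.31, 13.01 and 12.73 in the Nr4a1 arrays, against 9.92, 10.02, 9.88, 9.56 and 9.83 in the GFP arrays (log2 intensity). The rise was 7.87-fold (log2 2.98 ± 0.17, limma adjusted p = 1.21e-09) and 2.94 with the acinar covariate. Car2, carbonic anhydrase 2, read 11.59, 11.22, 10.57, 11.13 and 10.85 in the Nr4a1 arrays, against 8.81, 8.96, 9.08, 8.90 and 8.57 in the GFP arrays. Ephx1, the microsomal epoxide hydrolase whose window is shown above, read 8.77, 9.08, 8.24, 8.81 and 8.93 in the Nr4a1 arrays, against 6.89, 6.74, 6.41, 6.35 and 6.58 in the GFP arrays. Neither overlapped, and the log2 differences were 2.21 ± 0.19 for Car2 and 2.17 ± 0.26 for Ephx1. Xdh, xanthine dehydrogenase of purine breakdown, rose by 2.14 ± 0.21 (log2, limma adjusted p = 1.82e-06). Gatm, which makes the precursor of creatine, read 7.64, 7.59, 6.99, 7.77 and 7.24 in the Nr4a1 arrays, against 5.03, 5.49, 4.81, 5.53 and 4.66 in the GFP arrays. Its log2 difference of 2.34 ± 0.32 was 1.17 with the acinar covariate and then not called (adjusted p = 0.086). The dimmer probe set of Gatm differed by -0.03 and was not called.

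Among the rest were regulators of growth. Ddit4l, a stress-induced inhibitor of mTORC1, read 10.24, 10.86, 8.63, 10.997 and 9.999 in the Nr4a1 arrays, against 5.79, 6.22, 6.02, 5.70 and 6.55 in the GFP arrays (log2 intensity), a rise of 4.09 ± 0.42 (limma adjusted p = 2.86e-06). Gas2, a growth arrest-specific protein of the cytoskeleton, read 10.97, 10.80, 10.84, 11.03 and 9.86 in the Nr4a1 arrays, against 7.30, 7.09, 7.12, 7.18 and 7.03 in the GFP arrays. Replicate 5 was the lowest of its group, and it was still far above the GFP arrays; the log2 difference was 3.56 ± 0.19 (limma adjusted p = 8.35e-10). Nnat, neuronatin, a small membrane protein of the endoplasmic reticulum in neuroendocrine cells, read 13.04, 12.44, 12.19, 12.93 and 12.64 in the Nr4a1 arrays, against 8.71, 8.82, 8.66, 9.24 and 8.76 in the GFP arrays. The remaining genes were Trim16 of the tripartite motif family (2.08 ± 0.16), Rom1, known as a membrane protein of photoreceptor discs (2.11 ± 0.21), Fam25a (2.42 ± 0.28) and Depdc7 (2.32 ± 0.25). The last, 1810009J06Rikl, is an unnamed locus that the rule for leaving out such loci missed. It read 11.38, 11.23, 11.08, 11.85 and 12.07 in the Nr4a1 arrays, against 7.76, 10.53, 7.80, 9.46 and 8.81 in the GFP arrays, and differed by a log2 of 2.65 ± 0.60. With the acinar covariate its difference was 0.07 (limma adjusted p = 0.972). Of the 20 rises, 16 had their lowest Nr4a1 value in replicate 3, which was lowest in 48.9% of all 876 risen genes.

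The 20 largest falls were smaller, at most 2.1-fold for Rnf152, and the next fall had a log2 difference of -0.77. Several were genes of endothelial cells, and others were receptors or genes of nutrient sensing and signalling. All 5 Nr4a1 arrays lay below all 5 GFP arrays in each, again by the choice of genes, and 8 of the 20 were still called with the acinar covariate.

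**Figure D2:**
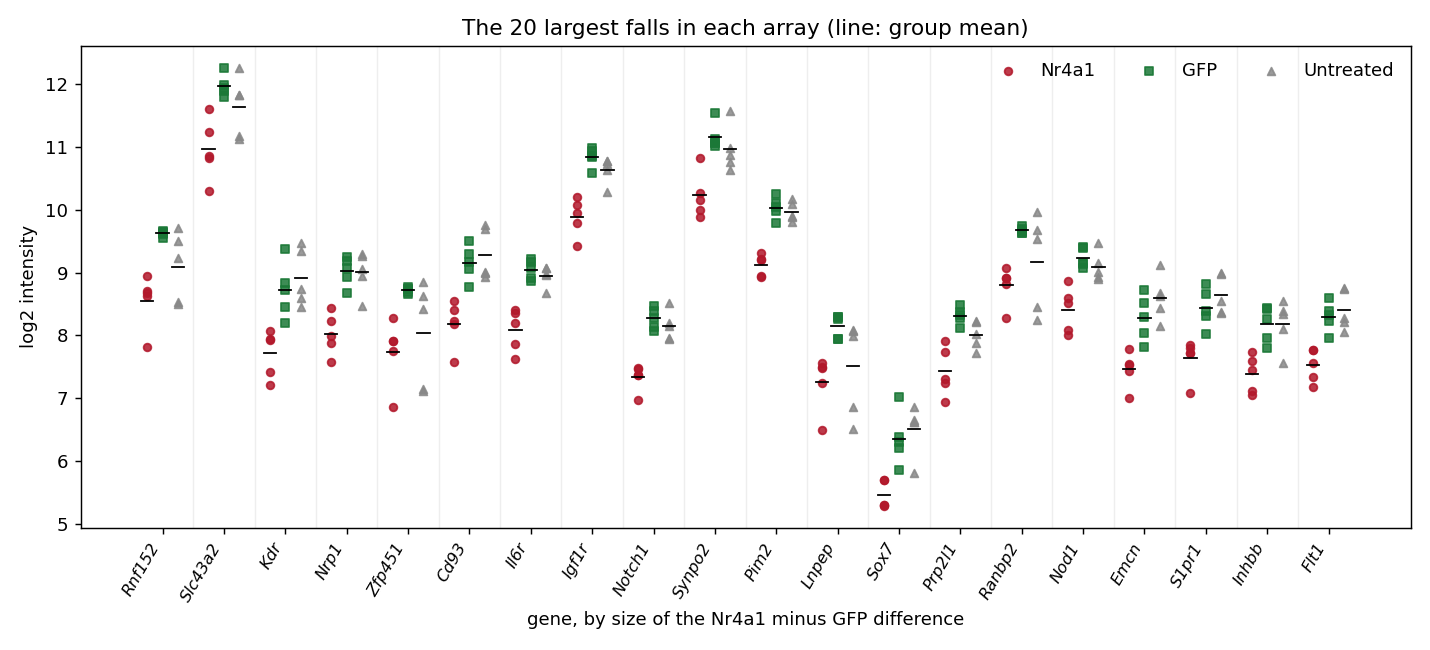
Log2 intensity of the 20 largest falls in each of the 5 Nr4a1 (circles), 5 GFP (squares) and 5 untreated (triangles) arrays; short lines are group means. Nr4a1 arrays sit below GFP arrays throughout, while untreated arrays of Rnf152, Zfp451, Lnpep and Ranbp2 split, with replicates 4 and 5 below all GFP arrays.

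Rnf152, a lysosomal ubiquitin ligase that restrains mTORC1, read 8.62, 8.70, 8.94, 7.81 and 8.67 in the Nr4a1 arrays, against 9.63, 9.65, 9.66, 9.55 and 9.62 in the GFP arrays (log2 intensity). The GFP arrays lay close together, the Nr4a1 arrays were all lower, and replicate 4 was the lowest of them. Slc43a2, a transporter of neutral amino acids, read 10.81, 11.24, 11.60, 10.30 and 10.86 in the Nr4a1 arrays, against 11.88, 11.80, 11.93, 12.25 and 11.98 in the GFP arrays. Il6r, the receptor subunit that binds interleukin 6, read 7.63, 8.36, 8.20, 7.86 and 8.41 in the Nr4a1 arrays, against 9.17, 9.07, 9.22, 8.86 and 8.91 in the GFP arrays, and differed by a log2 of -0.95 ± 0.15 (limma adjusted p = 0.000449). Igf1r, the receptor of insulin-like growth factor 1, read 9.43, 10.07, 9.79, 9.95 and 10.20 in the Nr4a1 arrays, against 10.85, 10.94, 10.97, 10.58 and 10.83 in the GFP arrays. It fell by 0.95 (limma adjusted p = 0.000796). Neither Il6r nor Igf1r was called with the acinar covariate, at limma adjusted p of 0.161 and 0.162. Over all alternative fits, that one included, the log2 differences stayed within -1.03 to -0.65 for Il6r and -1.03 to -0.72 for Igf1r.

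Other receptors and signalling genes among the falls were Notch1 (log2 difference -0.94 ± 0.18), Nod1, a sensor of bacterial peptidoglycan (-0.82 ± 0.14), and Inhbb, the beta B subunit of activins (-0.79 ± 0.19). Pim2, a kinase that promotes survival, differed by -0.91 ± 0.21, the actin-binding gene Synpo2 by -0.93 ± 0.19 and Prp2l1 by -0.89 ± 0.15 (log2, SE). Zfp451, a SUMO ligase, Lnpep, an aminopeptidase that travels with glucose transporters, and Ranbp2, a nucleoporin, differed by -0.98, -0.90 and -0.87. These 3 lost their calls when most single Nr4a1 or GFP arrays were left out (9, 8 and 7 of the 10 arrays). The limma adjusted p was up to 0.12 for Zfp451 without any 1 of Nr4a1 replicates 2, 3, 4 and 5 and GFP replicates 1, 2, 3, 4 and 5. It was up to 0.119 for Lnpep without any 1 of Nr4a1 replicates 1, 4 and 5 and GFP replicates 1, 2, 3, 4 and 5, and up to 0.098 for Ranbp2 without any 1 of Nr4a1 replicates 1 and 4 and GFP replicates 1, 2, 3, 4 and 5. For Ranbp2, 3 dimmer probe sets gave log2 differences between -0.18 and -0.03, none of them called. The lowest Nr4a1 value was in replicate 4 for 7 of the 20 falls, and in 21.5% of all 363 fallen genes; replicate 1 was lowest in 56.7% of them.

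Across 34 lists of pathways and cell types, the shares called higher and lower are set against 6.16% and 2.55% of all genes. Counts without Nr4a3 replicate 2 stand beside 1739 rises and 975 falls among all 14217 genes. Those with the acinar covariate stand beside 166 rises and 44 falls. The lists of endothelial genes and of glucose sensing and beta cell ion channels had the highest shares of falls. Secretin and guanylin signalling, cholesterol synthesis, fatty acid oxidation and amino acid metabolism had the highest shares of rises. The lists were written with earlier results of these data known, so their shares are a description and not a test. Nkx6-1, Glrx5, Suclg1, Gpd2, Pmvk, Nsdhl, Gad1, Sesn3, Slc38a2, Gpx2, Prdx4, Gstt2, Camk2d and Pecam1 lie outside the rule for naming genes. They are named, after their values were seen, to complete small counts or, for Pecam1, as a defining marker.

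**Figure D3:**
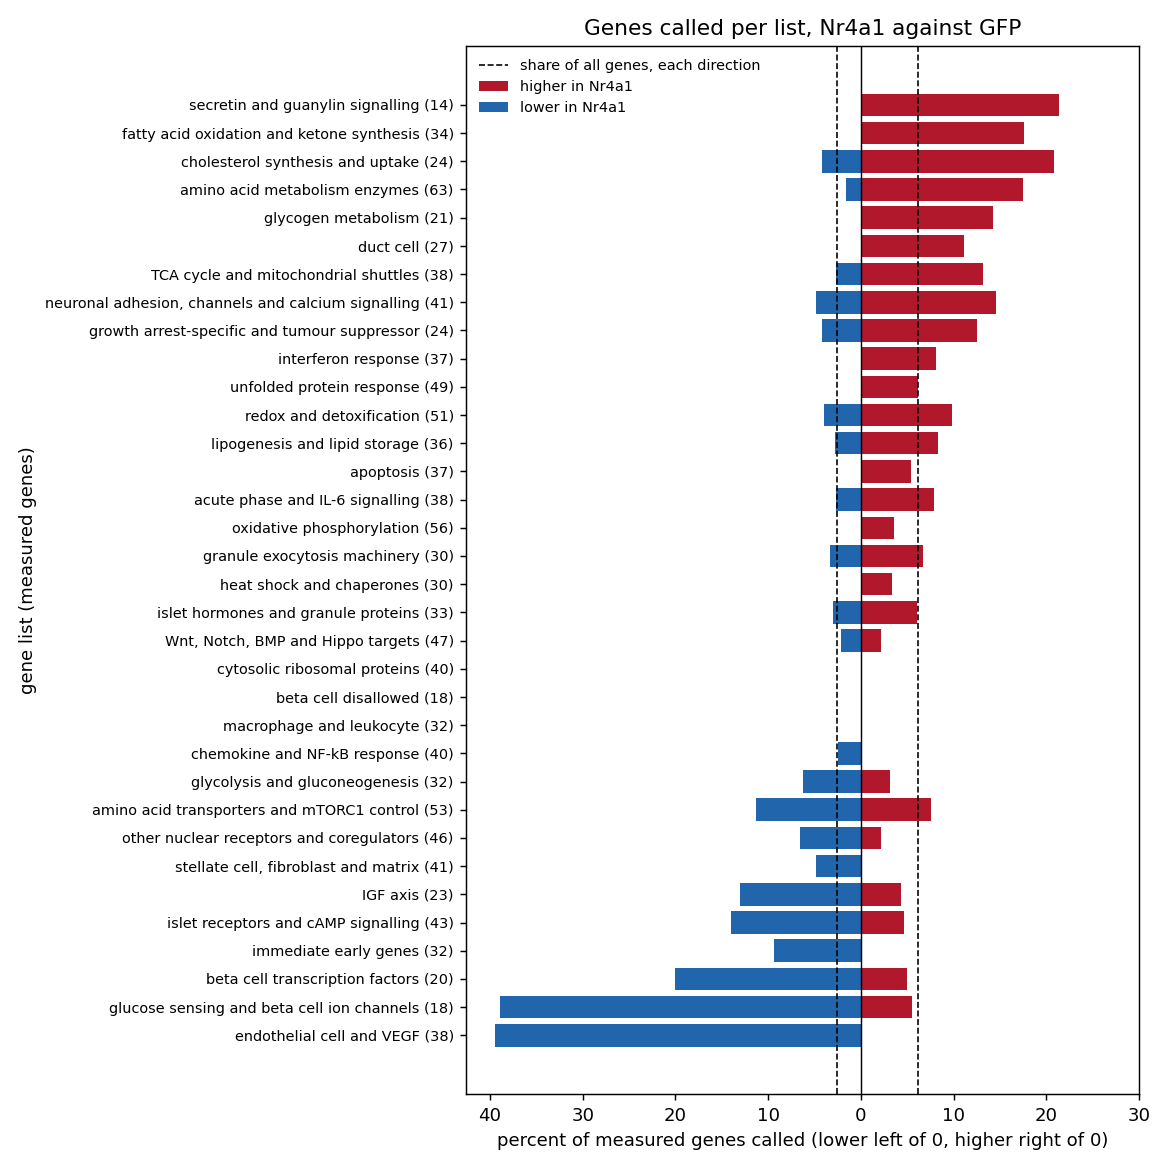
Percent of the measured genes of each list called higher (right of 0) or lower (left of 0) in Nr4a1 than in GFP arrays, with the number of measured genes in brackets; dashed lines mark the shares over all genes, 6.16% higher and 2.55% lower. Endothelial genes reach 39.5% lower and glucose sensing genes 38.9% lower.

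In the list of glucose sensing genes and beta cell ion channels, 7 of 18 fell (38.9%) and 1 rose, with a median log2 difference of -0.35. Kcnj11, the pore of the ATP-sensitive potassium channel, read 10.47, 10.76, 11.10, 10.82 and 10.83 in the Nr4a1 arrays, against 11.38, 11.31, 11.47, 11.40 and 11.26 in the GFP arrays (log2 intensity), without overlap. Cacna1c, a pore subunit of L-type calcium channels, read 7.998, 7.91, 7.93, 8.20 and 8.17 in the Nr4a1 arrays, against 8.62, 8.59, 8.35, 8.59 and 8.45 in the GFP arrays. It fell by 0.48 (limma adjusted p = 0.00248) and by 0.60 with the acinar covariate. The dimmer probe set of Cacna1c differed by -0.06 and was not called. The 1 rise was Glrx5, a mitochondrial glutaredoxin, at 0.37 ± 0.11 (limma adjusted p = 0.0355), and it was lost without any 1 of 9 of the 10 Nr4a1 and GFP arrays. The T-type channel subunit gene Cacna1h differed by -0.76 ± 0.16 and Kcnk3, a background potassium channel, by -0.60 ± 0.13 (log2, SE). The dimmer probe set of Cacna1h differed by -0.05 and those of Kcnk3 by 0.01 and -0.34, none of them called. Without Nr4a3 replicate 2, 2 of the 18 rose. Single arrays set how many passed: 4 of the 18 fell without any 1 of Nr4a1 replicates 1, 2, 4 and 5, GFP replicates 1, 3 and 5, or untreated replicates 2, 3 and 4. With the acinar covariate 1 of the 18 fell, where 44 of all 14217 genes did.

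Among 20 transcription factors of the beta cell, 4 fell and 1 rose, with a median of -0.15. Pdx1, the homeodomain factor that drives insulin transcription, read 8.96, 9.69, 9.65, 9.48 and 9.32 in the Nr4a1 arrays, against 10.15, 10.08, 10.31, 9.91 and 10.10 in the GFP arrays (log2 intensity). Hnf4a, a nuclear receptor of liver and islet, read 8.19, 8.50, 8.67, 8.30 and 8.35 in the Nr4a1 arrays, against 9.001, 8.78, 8.95, 8.98 and 8.86 in the GFP arrays. Both were below every GFP array, by -0.69 ± 0.13 and -0.51 ± 0.09 (log2, SE). The call of Hnf4a ended when its probe sets were averaged, as its 2 dimmer probe sets differed by -0.03 and 0.01. The fourth fall was Nkx6-1, a factor of beta cell identity, with values given above. Tox3 differed by -0.73 ± 0.18 and also lost its call in that average. Tcf7l2, an effector of Wnt signalling, rose by 0.69 ± 0.19 by its brightest probe set. The mean of its 5 probe sets differed by 0.23 (log2, limma adjusted p = 0.315), and none of the dimmer 4 was called. That rise was also lost when Nr4a1 replicate 1, 4 or 5 was left out, or replicate 5 of GFP (limma adjusted p up to 0.0758). None of the 20 factors was called with the acinar covariate, where 166 of all 14217 genes rose and 44 fell.

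Receptors and cAMP signalling moved both ways. Of 43 genes 6 fell and 2 rose, with a median of -0.09. Drd2, the D2 dopamine receptor, which inhibits insulin secretion, rose 3.0-fold and read 8.27, 7.85, 7.28, 8.001 and 7.75 in the Nr4a1 arrays, against 6.35, 6.31, 6.13, 6.10 and 6.35 in the GFP arrays (log2 intensity). The log2 difference was 1.58 ± 0.16 (limma adjusted p = 2.07e-06) and 1.34 with the acinar covariate. Pkia, an inhibitor of protein kinase A, read 9.14, 9.06, 8.88, 9.09 and 8.89 in the Nr4a1 arrays, against 8.01, 8.23, 8.08, 8.01 and 7.96 in the GFP arrays. It rose by 0.96 ± 0.10, and by 0.86 with the covariate, and both genes were called there. Gipr, the receptor of the incretin GIP, read 8.39, 8.57, 8.61, 9.06 and 8.77 in the Nr4a1 arrays, against 9.59, 9.41, 9.48, 9.58 and 9.12 in the GFP arrays. It fell by 0.76, and by 0.84 with the covariate (limma adjusted p = 0.0175). Pde10a, a phosphodiesterase of cyclic nucleotides, fell by 0.49 (limma adjusted p = 0.00388).

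Hormone and granule genes were called at shares near those of all genes, 6.06% higher and 3.03% lower against 6.16% and 2.55%. The hormone genes Ins2, Gcg and Iapp lay at most 0.31, 0.41 and 0.654 below the brightest gene of each Nr4a1 and GFP array (log2). A difference there would be compressed, as for Ins1. Of 33, Nnat and Chgb rose and Ero1b fell, with a median of -0.06, and 2 fell without Nr4a3 replicate 2. Chgb, a granin of secretory granules, differed by 0.35 ± 0.09 (log2), a call that ended when replicate 5 of either group was left out (limma adjusted p up to 0.0604). Ero1b, the oxidase that supports proinsulin folding, read 12.02, 12.61, 12.89, 12.49 and 12.23 in the Nr4a1 arrays, against 13.11, 12.86, 13.09, 13.25 and 13.10 in the GFP arrays, and replicate 3 overlapped the GFP range. Among 30 genes of granule exocytosis Sytl2, a Rab27 effector, rose by 1.002 ± 0.19 and Cadps2, a factor of granule priming, by 0.46 ± 0.12. Syt7, a calcium sensor of exocytosis, fell by 0.62 (limma adjusted p = 0.00232). Without Nr4a3 replicate 2, 4 of the 30 rose and 2 fell, and the call of Cadps2 ended when Nr4a1 replicate 1 or 4 was left out, or replicate 4 of GFP (limma adjusted p up to 0.0633). None of 18 genes that beta cells normally keep silent was called, and the brightest of them, Lmo4 and Cat, differed by -0.02 and 0.03 (log2).

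In carbohydrate metabolism, Gyg1 stood out among 21 glycogen genes, of which 3 rose and none fell (5 and 2 without Nr4a3 replicate 2). Gys2, the liver form of glycogen synthase, was dim at 4.86, 4.78, 5.24, 5.08 and 5.18 in the Nr4a1 arrays, against 4.12, 4.42, 4.26, 4.42 and 4.60 in the GFP arrays (log2 intensity), and Gbe1, the branching enzyme, differed by 0.48 ± 0.11. Of 32 glycolysis and gluconeogenesis genes 1 rose and 2 fell, and without Nr4a3 replicate 2, 6 rose and 4 fell. Pfkfb2, which sets the level of fructose 2,6-bisphosphate, read 8.48, 8.61, 8.62, 8.75 and 8.55 in the Nr4a1 arrays, against 9.02, 9.10, 9.21, 9.06 and 8.92 in the GFP arrays, a fall of 0.46. Ldhb rose by 0.58 ± 0.13 and the pyruvate kinase gene Pklr fell by 0.59, a call lost without Nr4a1 replicate 1 (limma adjusted p = 0.0577). Without that array 2 of the 32 rose and 1 fell.

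Mitochondrial genes leaned upward with small differences. In oxidative phosphorylation 53 of 56 genes had a positive difference and the median was 0.16, but 2 passed the test, Cyc1 (0.45 ± 0.09) and Uqcr10 (0.22 ± 0.07), both of complex III. Without Nr4a3 replicate 2, 24 of the 56 rose and none fell, where 1739 of all 14217 genes rose and 975 fell. Uqcr10 lost its call without any 1 of Nr4a1 replicates 1, 2, 4 and 5, GFP replicates 1, 2, 3, 4 and 5, Nr4a3 replicates 1, 3 and 5 and untreated replicate 4 (limma adjusted p up to 0.123). Of 38 genes of the TCA cycle and mitochondrial shuttles 5 rose and 1 fell, with a median of 0.12, and 13 rose and 2 fell without Nr4a3 replicate 2. Slc25a13, the aspartate-glutamate carrier citrin, read 8.71, 8.66, 8.26, 8.89 and 8.50 in the Nr4a1 arrays, against 7.67, 8.03, 7.998, 7.59 and 7.70 in the GFP arrays (log2 intensity). Glud1, glutamate dehydrogenase, read 11.52, 11.30, 11.33, 11.15 and 11.16 in the Nr4a1 arrays, against 10.72, 10.51, 10.71, 10.75 and 10.62 in the GFP arrays. Both lay above every GFP array and stayed called with the acinar covariate. The fall was Gpd2, the mitochondrial glycerol phosphate dehydrogenase (-0.42). It was not called without any 1 of Nr4a1 replicates 1, 2, 4 and 5, GFP replicates 1, 3 and 5, Nr4a3 replicate 1 and untreated replicates 1, 3 and 4. Suclg1, a succinyl-CoA ligase subunit, rose by 0.38. Sdha of succinate dehydrogenase rose by 0.30 ± 0.07, and Sucla2 by 0.24 ± 0.07, a call that ended when its probe sets were averaged and without any 1 of Nr4a1 replicates 1, 3, 4 and 5 and GFP replicates 1, 2, 3 and 5 (limma adjusted p up to 0.0933). The count of 5 rises was 3 without any 1 of Nr4a1 replicates 1, 3 and 4 or GFP replicates 1, 2, 3 and 5.

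Fatty acid oxidation followed the same direction, with 6 of 34 genes risen, none fallen and a median of 0.10. Acadvl, the very long chain acyl-CoA dehydrogenase, read 8.99, 8.92, 8.49, 8.88 and 8.82 in the Nr4a1 arrays, against 8.19, 8.18, 8.30, 8.07 and 8.15 in the GFP arrays (log2 intensity). Slc25a20, which carries acylcarnitines into mitochondria, read 10.26, 10.24, 9.99, 10.20 and 10.10 in the Nr4a1 arrays, against 9.69, 9.69, 9.74, 9.41 and 9.61 in the GFP arrays. The log2 differences were 0.64 ± 0.13 and 0.53 ± 0.11, with no overlap of groups in either. The medium chain dehydrogenase gene Acadm differed by 0.38 and Decr1, of the oxidation of unsaturated fatty acids, by 0.42. Acadm was not called without Nr4a1 replicate 1 (0.0528), nor Decr1 without any 1 of Nr4a1 replicates 1 and 4 and GFP replicates 4 and 5 (limma adjusted p up to 0.0784). The count of 6 was 3 without GFP replicate 5, 2 without Nr4a1 replicate 1 and 10 without Nr4a3 replicate 2. With the acinar covariate it was 1, where 166 of all 14217 genes rose.

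The lipogenesis list showed no common direction. Of 36 lipogenesis genes 3 rose and 1 fell, with a median of -0.0087, and without Nr4a3 replicate 2 the counts were 6 and 4. Falls numbered 2 without Nr4a1 replicate 3. Fasn, fatty acid synthase, read 9.47, 9.53, 9.67, 9.77 and 9.75 in the Nr4a1 arrays, against 10.01, 9.93, 9.998, 10.04 and 9.88 in the GFP arrays (log2 intensity), a fall of 0.33. The elongases Elovl1 and Elovl5 and the lipoprotein lipase Lpl differed by 0.40, 0.33 and 0.49. The call of Elovl1 ended without any 1 of Nr4a1 replicates 1, 4 and 5 and GFP replicates 1, 4 and 5 and that of Elovl5 without any 1 of Nr4a1 replicates 1, 3 and 4 and GFP replicates 1, 3, 4 and 5 (limma adjusted p up to 0.075 and 0.11). Elovl5 was not called either when its probe sets were averaged. The call of Lpl ended without any 1 of Nr4a1 replicates 1, 2, 4 and 5, GFP replicates 2, 4 and 5, Nr4a3 replicates 1 and 3 and untreated replicates 1, 2 and 3 (up to 0.128). In cholesterol synthesis and uptake 5 of 24 rose and 1 fell, and 3 fell without Nr4a3 replicate 2. Fdft1, squalene synthase, read 9.57, 9.59, 9.52, 9.77 and 9.60 in the Nr4a1 arrays, against 8.67, 8.94, 8.82, 8.61 and 8.66 in the GFP arrays, a rise of 0.87 ± 0.12 (limma adjusted p = 8.24e-05). Stard4, a carrier of cholesterol, rose by 0.77 ± 0.10 and Acat2, a thiolase of the cytosol, by 0.77 ± 0.13. Pmvk and Nsdhl, enzymes of sterol synthesis, rose by 0.43 and 0.36. Abca1, which exports cholesterol, read 9.72, 10.14, 10.09, 10.02 and 10.20 in the Nr4a1 arrays, against 10.83, 10.77, 10.82, 10.65 and 10.77 in the GFP arrays and fell by 0.74.

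Enzymes of amino acid metabolism had 11 of 63 genes risen (17.5%) and 1 fallen, with a median of 0.07, and 17 rose without Nr4a3 replicate 2. Ahcy, which clears S-adenosylhomocysteine in the methionine cycle, read 11.43, 11.40, 11.13, 11.29 and 11.35 in the Nr4a1 arrays, against 10.44, 10.35, 10.37, 10.17 and 10.34 in the GFP arrays (log2 intensity). Its rise of 0.99 ± 0.10 (limma adjusted p = 2.86e-06) was 1.003 with the acinar covariate. Cth, of cysteine synthesis, read 7.61, 6.51, 7.09, 6.88 and 6.90 in the Nr4a1 arrays, against 5.86, 5.84, 5.78, 5.61 and 5.45 in the GFP arrays, and Aadat, of lysine and kynurenine breakdown, read 5.65, 6.65, 5.29, 6.26 and 6.09 against 4.32, 4.44, 4.39, 4.36 and 4.31. The differences were 1.29 ± 0.23 and 1.63 ± 0.30, without overlap, and neither was called with the covariate (limma adjusted p = 0.108 and 0.0982). Over all alternative fits, that one included, the differences stayed within 1.14 to 1.41 for Cth and 1.46 to 1.80 for Aadat. Gad1, which makes GABA, was the 1 fall (-0.50 ± 0.12), and 2 fell without any 1 of Nr4a1 replicate 5, GFP replicate 4, Nr4a3 replicates 2 and 5 and untreated replicate 2. With the covariate 2 of the 63 rose, where 166 of all 14217 genes did.

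Amino acid transporters and regulators of mTORC1, the kinase complex that couples nutrients to growth, went both ways. Of 53 genes 4 rose and 6 fell, with a median of -0.14, and without Nr4a3 replicate 2, 5 rose and 12 fell. The inhibitor gene Ddit4l rose while Sesn2, a leucine sensor that also inhibits mTORC1, fell: it read 10.94, 10.87, 11.27, 10.76 and 11.33 in the Nr4a1 arrays, against 11.78, 11.55, 11.54, 11.64 and 11.64 in the GFP arrays (log2 intensity). Slc38a1, a glutamine transporter, rose by 0.55 ± 0.10, its relative Slc38a2 by 0.28 and the sestrin gene Sesn3 by 0.55 (log2). The count of 4 rises was 2 without any 1 of Nr4a1 replicates 1, 2, 4 and 5 or GFP replicates 1, 2, 3 and 5.

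On the IGF axis 1 of 23 genes rose, the binding protein Igfbp3, and 3 fell, with a median of -0.16. Igf2r, which takes up and clears IGF2, read 10.06, 10.26, 10.11, 9.80 and 10.35 in the Nr4a1 arrays, against 10.80, 10.80, 10.72, 10.52 and 10.74 in the GFP arrays (log2 intensity) and fell by 0.60. Igfbp1, another binding protein, fell by 0.40 (limma adjusted p = 0.0101). None of the 23 genes was called with the acinar covariate, where 166 of all 14217 genes rose and 44 fell.

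In the inflammation and antiviral lists the shares risen were 7.89% (acute phase and IL-6), 0% (chemokine and NF-kB) and 8.11% (interferon response). The shares fallen were 2.63%, 2.5% and 0% in the same order, against 6.16% risen and 2.55% fallen of all genes. Of 38 acute phase and IL-6 genes the 3 fibrinogen chains rose and Il6r fell, with a median of -0.02, and 5 rose without Nr4a1 replicate 3, but 1 without any 1 of Nr4a1 replicates 1, 2 and 4 or GFP replicates 1, 4 and 5. Without GFP replicate 4, 3 of the 38 fell. Among 40 chemokine and NF-kB genes Il1r1, the interleukin 1 receptor, was the only call: it fell by 0.63, and was not called when Nr4a1 replicate 1, 4 or 5 was left out, or replicate 2, 3 or 5 of GFP (limma adjusted p up to 0.116). Without Nr4a3 replicate 2, 2 of the 40 fell. Of 37 interferon response genes 3 rose and none fell, and 2 fell without Nr4a3 replicate 2. Usp18, an interferon-induced protease, read 8.52, 8.12, 8.36, 8.05 and 8.10 in the Nr4a1 arrays, against 7.60, 7.21, 7.54, 7.39 and 7.15 in the GFP arrays, and Ifi44l read 8.27, 8.30, 8.09, 8.18 and 8.71 against 8.05, 7.78, 7.62, 7.36 and 7.46 (log2 intensity). The log2 differences were 0.86 ± 0.18 and 0.66 ± 0.14, and Irf7 differed by 0.48 ± 0.14 with overlapping groups. Irf7 was not called in the fit to only the 10 Nr4a1 and GFP arrays, nor without any 1 of Nr4a1 replicates 1, 3 and 5, GFP replicates 2, 3, 4 and 5, Nr4a3 replicates 1, 3 and 4 and untreated replicates 2, 4 and 5 (limma adjusted p up to 0.151).

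Endothelial genes and VEGF signalling fell together, 15 of 38 with none risen and a median of -0.37, and 35 of the 38 differences were negative. Nrp1, a co-receptor of VEGF, read 8.44, 7.89, 7.99, 7.58 and 8.23 in the Nr4a1 arrays, against 9.18, 8.92, 9.07, 9.25 and 8.68 in the GFP arrays (log2 intensity), and fell by 0.99. Flt1, VEGF receptor 1, read 7.33, 7.18, 7.56, 7.77 and 7.77 in the Nr4a1 arrays, against 8.23, 8.38, 8.33, 8.60 and 7.95 in the GFP arrays. Vegfa, the ligand that beta cells release, was bright at 11.30, 11.34, 11.35, 11.42 and 11.52 in the Nr4a1 arrays, against 11.73, 11.86, 11.79, 11.58 and 11.81 in the GFP arrays, and fell by 0.37. Its call ended when its probe sets were averaged and with the acinar covariate. Pecam1, a defining adhesion molecule of endothelium, lay between 6.60 and 7.13 in the Nr4a1 arrays, against 7.23 to 7.84 in the GFP arrays, and fell by 0.58. The endothelial surface genes Emcn, Cd93, Kdr and S1pr1 and the transcription factor gene Sox7 were among the 20 largest falls, at -0.82, -0.97, -0.999, -0.80 and -0.89. With the acinar covariate 13 of the 38 fell, and the differences of Kdr and Flt1 were -1.62 and -1.19. Without Nr4a1 replicate 2, or GFP replicate 1 or 4, 8 of the 38 fell. Kdr lost its call without any 1 of Nr4a1 replicates 1 and 2 and GFP replicates 1 and 4, S1pr1 without any 1 of Nr4a1 replicate 2 and GFP replicates 1 and 4 and Sox7 without any 1 of Nr4a1 replicates 2 and 4 and GFP replicate 1 (limma adjusted p up to 0.0657, 0.0562 and 0.0711). S1pr1 was not called either when its probe sets were averaged.

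**Figure D4:**
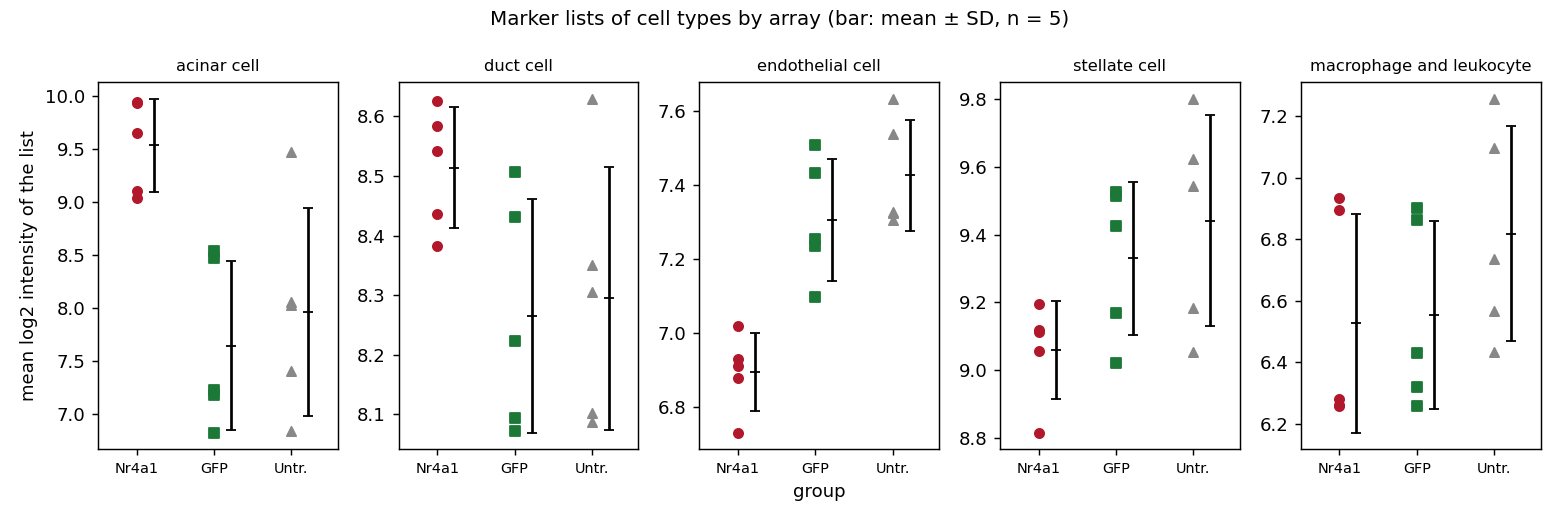
Mean log2 intensity of 5 marker lists in each array of the Nr4a1, GFP and untreated groups, with bars for mean ± SD (n = 5); each panel has its own axis. Acinar means are higher (9.04 to 9.94, against 6.83 to 8.53) and endothelial means lower in Nr4a1 than in GFP arrays without overlap, while macrophage means overlap (6.26 to 6.93, against 6.26 to 6.90).

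The mean of the endothelial list was 6.73 to 7.02 in the Nr4a1 arrays, against 7.10 to 7.51 in the GFP arrays and 7.31 to 7.63 in untreated arrays (log2 intensity). Of 41 stellate cell, fibroblast and matrix genes 2 fell and none rose, with a median of -0.28; these were Col4a1 and Col4a2 of basement membrane collagen, at -0.41 and -0.66. Col4a1 was not called without any 1 of Nr4a1 replicates 1, 2, 3 and 4, GFP replicates 1, 2, 3 and 4 and Nr4a3 replicate 3 (limma adjusted p up to 0.129), nor when its probe sets were averaged, nor Col4a2 without any 1 of Nr4a1 replicates 1 and 2 and GFP replicates 1, 2 and 3 (up to 0.0918). The list mean was 8.81 to 9.19 in the Nr4a1 arrays, against 9.02 to 9.53 in the GFP arrays, with overlap. None of 32 macrophage and leukocyte genes was called, and their brightest, Cd74 and RT1-Ba, differed by 0.16 and -0.01. Of 27 duct cell genes 3 rose and none fell, with a median of 0.04, and 2 fell without Nr4a3 replicate 2. The 3 rises were Car2, Car4 (0.60 ± 0.10) and Cd24 (1.66 ± 0.30). The duct markers Krt19, Krt7 and Spp1 differed by 0.05, -0.36 and 1.07 (log2, limma adjusted p = 0.972, 0.327 and 0.0824), none of them called. Krt7 lay between 11.27 and 11.58 in the Nr4a1 arrays, against 11.68 to 11.98 in the GFP arrays, and the groups of Krt19 and Spp1 overlapped. The list mean of duct genes overlapped between the groups.

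In the unfolded protein response 3 of 49 genes rose and none fell, with a median of 0.01, and 10 rose and 4 fell without Nr4a3 replicate 2. Without Nr4a1 replicate 5, GFP replicate 4 or untreated replicate 5, 1 fell. Xbp1, the transcription factor of secretory capacity, read 12.89, 12.82, 12.75, 12.69 and 12.74 in the Nr4a1 arrays, against 12.06, 12.08, 12.04, 12.01 and 12.02 in the GFP arrays (log2 intensity). The arrays of each group lay close together and far from the other group, and the rise of 0.74 ± 0.10 (limma adjusted p = 4.5e-05) was 0.78 with the acinar covariate. Derl2 and Sel1l, of the degradation of misfolded proteins, rose by 0.38 and 0.34. Sel1l lost its call without any 1 of Nr4a1 replicates 1, 2 and 4 and GFP replicates 1, 3 and 4 (limma adjusted p up to 0.0911). Hsph1, a cochaperone of the Hsp70 system, was the only call among 30 heat shock and chaperone genes, at 10.72, 10.49, 10.45, 10.72 and 10.87 in the Nr4a1 arrays, against 9.82, 10.22, 9.80, 9.69 and 9.83 in the GFP arrays. Without Nr4a3 replicate 2, 6 of the 30 rose, and 2 without GFP replicate 1. None of 40 ribosomal protein genes was called, though 2 rose without Nr4a3 replicate 2, and Rps23 and Rps29 differed by 0.05 and 0.07.

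Redox and detoxification genes counted 5 rises and 2 falls among 51, and 12 and 4 without Nr4a3 replicate 2. Aldh1a1, the retinal dehydrogenase, read 7.84, 6.997, 7.36, 7.43 and 7.26 in the Nr4a1 arrays, against 6.12, 5.61, 5.32, 5.35 and 5.56 in the GFP arrays (log2 intensity). Sod3, the extracellular superoxide dismutase, read 8.81, 8.66, 8.91, 8.23 and 7.96 in the Nr4a1 arrays, against 7.62, 7.16, 7.54, 7.54 and 7.39 in the GFP arrays. Hmox1, heme oxygenase 1, was lower at 11.74, 11.79, 12.15, 11.80 and 12.55 in the Nr4a1 arrays, against 12.89, 12.80, 12.53, 12.46 and 12.65 in the GFP arrays, and replicate 5 overlapped. The log2 differences were 1.78 ± 0.21, 1.06 ± 0.20 and -0.66 ± 0.15. The other rises were Ephx1, Gpx2, a glutathione peroxidase of epithelia (1.83 ± 0.46), and Prdx4, a peroxiredoxin of the endoplasmic reticulum (0.47 ± 0.11), and the other fall was Gstt2, a glutathione transferase (-0.46). The count of 2 falls was 4 without GFP replicate 4 and 1 without Nr4a1 replicate 1.

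Growth arrest genes other than Gas2 moved less. Tob1 of the antiproliferative BTG family read 10.83, 10.78, 10.49, 10.52 and 10.46 in the Nr4a1 arrays, against 9.90, 9.82, 9.96, 9.94 and 9.82 in the GFP arrays (log2 intensity), a rise of 0.73 ± 0.11, and its paralogue Tob2 fell by 0.34. Btg3 rose by 0.40, a call lost without any 1 of Nr4a1 replicates 1, 2 and 4 and GFP replicates 1, 2, 3 and 5 (limma adjusted p up to 0.0923). Of the 24 genes of this list 3 rose and 1 fell, and 5 rose without Nr4a3 replicate 2 or without Nr4a1 replicate 3. Falls numbered 3 without Nr4a3 replicate 2 and 2 without Nr4a1 replicate 3. Among 37 apoptosis genes 2 rose: Aifm1, a mitochondrial flavoprotein that can trigger cell death, by 0.78 ± 0.14, and Cflar, an inhibitor of death receptor signalling, by 0.32 ± 0.09. Cflar was not called without any 1 of Nr4a1 replicates 1 and 4 and GFP replicates 1, 2 and 3 (limma adjusted p up to 0.0846). Without Nr4a3 replicate 2, 5 of the 37 rose and 3 fell, and 1 fell without Nr4a1 replicate 5 or Nr4a3 replicate 4. Of 32 immediate early genes 3 fell by small amounts: Jund (-0.28), Zfp36 (-0.57) and Arc (-0.26), and none of the 32 fell without any 1 of Nr4a1 replicates 1 and 4 and GFP replicates 2 and 5. The mean of the Jund probe sets differed by -0.03 (log2, limma adjusted p = 0.857). Zfp36 also lost its call without Nr4a1 replicates 2 or 3 or GFP replicates 1 or 3, and Arc without Nr4a1 replicates 2 or 5 or GFP replicates 3 or 4 (limma adjusted p up to 0.0657 for Jund, 0.103 for Zfp36 and 0.107 for Arc).

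Among 46 other nuclear receptors and coregulators 1 rose and 3 fell, and without Nr4a3 replicate 2, 3 rose and 6 fell. Nrip1, a corepressor of nuclear receptors, read 9.35, 9.35, 8.99, 9.39 and 9.20 in the Nr4a1 arrays, against 8.28, 8.55, 8.42, 8.14 and 8.32 in the GFP arrays (log2 intensity), a rise of 0.91 ± 0.15 (limma adjusted p = 0.000422). Besides Hnf4a, the glucocorticoid receptor gene Nr3c1 (-0.28) and the coactivator gene Ncoa1 (-0.39) fell. Nr3c1 was not called without any 1 of Nr4a1 replicates 1, 3 and 5 and GFP replicates 1, 2 and 3 and Ncoa1 without any 1 of Nr4a1 replicates 1 and 2 and GFP replicates 1, 2, 3, 4 and 5 (limma adjusted p up to 0.134 and 0.139). Ncoa1 was not called either when its probe sets were averaged. Of the 46, 3 rose without Nr4a1 replicate 3, 2 without untreated replicate 1, and 1 fell without any 1 of Nr4a1 replicate 1 and GFP replicates 1, 2 and 3. In the list of neuronal adhesion, channels and calcium signalling 6 of 41 rose and 2 fell, and 9 fell without Nr4a3 replicate 2. Nefm, a neurofilament subunit, read 9.13, 9.71, 9.16, 9.60 and 9.79 in the Nr4a1 arrays, against 8.63, 8.65, 8.58, 8.02 and 8.49 in the GFP arrays, and Gap43, of growing axons, read 9.41, 9.32, 9.24, 9.53 and 9.09 against 8.19, 8.43, 8.32, 8.53 and 8.16. Ryr2, a calcium release channel, and Camk2d, a calmodulin-dependent kinase, fell by 0.62 and 0.46, and S100a10, a partner of annexin A2, rose by 0.85 ± 0.21. The count of 2 falls was 1 without Nr4a1 replicate 1 or GFP replicate 1, and that of 6 rises was 3 without Nr4a1 replicate 4 or GFP replicate 3. Of 47 listed targets of Wnt, Notch, BMP and Hippo signalling Bmp2 rose and Inhbb fell, and without Nr4a3 replicate 2, 8 fell. Notch1, Ndp and Tcf7l2, whose calls are described above, are not counted in this list. Falls numbered 3 without GFP replicate 2, and 2 without any 1 of Nr4a1 replicates 1, 3 and 5, GFP replicates 4 and 5 and untreated replicate 2.

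GFP arrays gave no called difference from untreated arrays with limma, with 412 genes (2.9%) at an unadjusted p under 0.05. Against untreated arrays, 760 genes were higher (5.35%) and 369 lower (2.6%) in Nr4a1 arrays. In 19 of the 20 largest rises all untreated arrays also lay below all Nr4a1 arrays, 1810009J06Rikl being the exception. This includes untreated replicate 5, whose acinar mean of 9.47 lay within the Nr4a1 range. Of the 20 largest falls, 12 had all untreated arrays above all Nr4a1 arrays. In 9 of the 20 falls untreated replicates 4 and 5 were both below every GFP array. Zfp451 was such a gene, at 8.27, 7.91, 7.75, 6.86 and 7.91 in the Nr4a1 arrays, 8.65, 8.68, 8.74, 8.73 and 8.77 in the GFP arrays and 8.62, 8.41, 8.85, 7.15 and 7.12 in untreated arrays (log2 intensity). Untreated values of Rnf152 were 9.50, 9.23, 9.70, 8.53 and 8.49, of which replicates 4 and 5 lay inside the Nr4a1 range.

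Against the Nr4a3 arrays, which enter this and no other comparison here as a group, 85 genes were higher (0.598%) and 5 lower (0.0352%) in Nr4a1 arrays, and 116 (0.816%) and 17 (0.12%) without Nr4a3 replicate 2. This comparison shares the Nr4a1 arrays with the one against GFP, so its values are only set beside it. Of the 20 largest rises 7 were also higher than in Nr4a3 arrays: Gas2, Kcnd2, Gyg1, Slc24a3, Xdh, Rom1 and Trim16. Without Nr4a3 replicate 2, 10 of the 20 were higher. Gyg1 read 13.03, 13.02, 12.31, 13.01 and 12.73 in the Nr4a1 arrays, against 11.38, 11.45, 10.99, 10.45 and 10.70 in the Nr4a3 arrays (log2 intensity), a log2 difference of 1.83 (limma adjusted p = 2.14e-05). Gas2 read 9.11, 9.40, 9.22, 8.46 and 9.08 in the Nr4a3 arrays, a log2 difference of 1.65 from the Nr4a1 values given above (limma adjusted p = 0.000194). Drd2 differed by 1.19 (limma adjusted p = 0.000715). For Sct, Gucy2c and Nnat the differences were 0.17, 0.39 and 0.60, none of them called, with SE of 0.31, 0.27 and 0.22. None of the 20 largest falls was called against Nr4a3.

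The acinar mean moved with the virus group, so the fit was repeated with that mean as a covariate over all 20 arrays. It then called 166 rises and 44 falls, and 195 of the 1239 called genes remained; 1223 of the 1239 kept the sign of their difference. Of the 123 named genes that were called, 44 stayed called. The acinar means of the Nr4a1 and GFP arrays do not overlap, so within these 10 arrays the mean and the group can be told apart only in part. The covariate is fitted from the spread of the mean within groups (SD 0.44 in Nr4a1 and 0.80 in GFP arrays), and the other 10 arrays weigh in the estimate. The SE of Fga was 0.93 with the covariate, against 0.63 without it. Gas2 differed by 3.69 and Gyg1 by 2.94 with the covariate, against 3.56 and 2.98 without it.

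**Figure D5:**
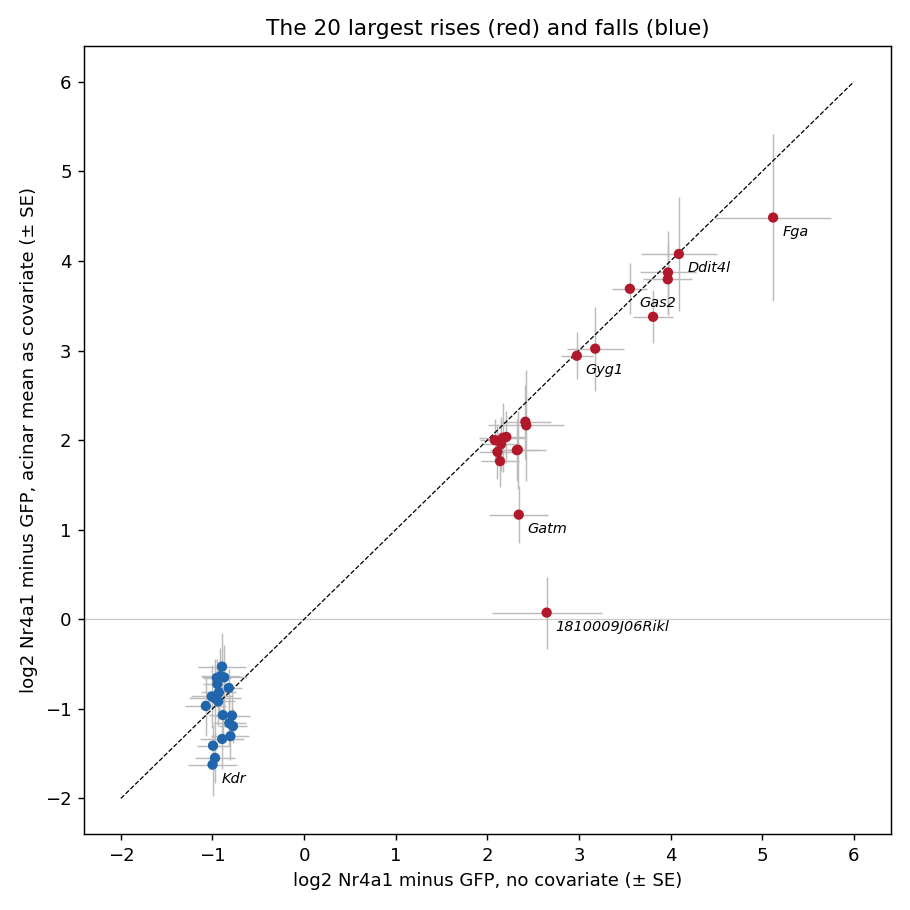
Log2 difference of Nr4a1 minus GFP arrays for the 20 largest rises and 20 largest falls, without (x axis) and with (y axis) the acinar mean as a covariate, with SE bars; the dashed line marks equal values. Most rises lie near the line, Gatm drops to 1.17 and 1810009J06Rikl to 0.07, and Kdr lies below the line at -1.62.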

How the data were processed

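RNA from whole rat islets was hybridised to 20 Affymetrix Rat230_2 arrays, 5 for each of 4 groups. The deposited table holds intensity values on a linear scale, from 7.69 to 34261, made by the authors with RMA, per the submitters' processing notes; its version is not stated. RMA subtracts background, equalises the distributions of arrays and summarises the probes of a set, so differences are relative within each array and compressed near the ceiling. The deposited values were taken to log2 here. Array medians were 98.9 to 103 on the linear scale. The number of arrays limits the precision, and no depth applies.

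Of 31099 probe sets, 57 were controls, 9831 had no gene symbol and 436 had several; 20826 had 1 symbol, from the platform annotation, which can be old. Of these, 20758 were found by gene identifier in the current gene table and none had another symbol there. The brightest probe set by the mean over 20 arrays stood for each of 14217 genes, of which 4525 had more than 1.

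The 4 groups were fitted together with limma 3.58.1 in R 4.3.3 (lmFit and eBayes, 16 residual and 3.64 prior degrees of freedom), with Benjamini-Hochberg adjustment over all genes and a threshold of 0.05. Tables were handled with Python 3.11.15 and pandas 2.3.3. The fit was tested on simulated data. Named genes were the NR4A family, the 20 largest rises and 20 largest falls among called genes whose groups did not overlap, and up to 4 called genes with the smallest adjusted p of each list, or its 2 brightest where none was called. The largest rises and falls leave out the acinar and cell cycle lists, and olfactory, vomeronasal and taste receptors. Unnamed loci were left out by symbol, where it starts with LOC, RGD or MGC or ends with Rik. The locus 1810009J06Rikl ends with Rikl and so stayed in. The members and lists were chosen with earlier results of these data known. Columns not mapped to a sample numbered 0.

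Alternatives were a fit to 10 arrays, each array left out, array weights, a trended and robust variance, a block for the replicate number, repeated quantile normalization, median centring, a mean log2 filter of 6, the mean of probe sets, every probe set alone, and the acinar mean as a covariate. Whether arrays with the same replicate number share an islet preparation is not stated, so the main fit has no pairing. Leaving Nr4a3 replicate 2 out of the comparison with Nr4a3 was added after seeing the data. Sequences came from RefSeq promoter tables of GRCr8.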

Additional observations from a re-analysis of the deposited data

Results flagged for a closer look

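In 19 of 262 groups of 5 arrays of named genes (7.25%), 1 array stood apart from the other 4 by Dixon's criterion, which chance meets in about 1 in 20 groups. Of these, 13 were in the Nr4a1 group and 6 in the GFP group (log2 intensity throughout). Nr4a1 replicate 3 was the lowest for the 3 fibrinogen chains, at 7.98 for Fga (others 10.96 to 11.68), 11.55 for Fgg (others 12.51 to 12.69) and 11.49 for Fgb (others 12.73 to 13.14). The same array was lowest for Igfbp3 at 9.50 and highest for Pklr at 8.60. Gas2 was lowest in Nr4a1 replicate 5, at 9.86 (others 10.80 to 11.03). Nr4a1 replicate 1 was highest for Depdc7 at 8.95 and lowest for Notch1 at 6.97 and Il1r1 at 11.47. Nr4a1 replicate 4 was lowest for Rnf152 at 7.81 and Syt7 at 6.92, and Nr4a1 replicate 2 for S1pr1 at 7.09 and Cd74 at 8.22. In the GFP group, replicate 4 was highest for Nnat at 9.24 and Synpo2 at 11.53 and lowest for Igf2r at 10.52 and Nefm at 8.02. GFP replicate 5 was lowest for Elovl5 at 9.83, and GFP replicate 2 highest for Hsph1 at 10.22.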

How the results depend on the processing

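The counts of 876 rises and 363 falls moved with the arrays that set the spread. They were 1810 and 1043 in a fit to only the 10 Nr4a1 and GFP arrays, 1997 and 1579 with array weights, and 166 and 44 with the acinar mean as a covariate. Leaving out 1 array at a time gave 578 to 1739 rises and 164 to 975 falls. The highest counts were without Nr4a3 replicate 2, where all 1239 called genes were called again, and the lowest without Nr4a1 replicate 1; falls numbered 204 without GFP replicate 1 and 227 without GFP replicate 3. The cause was not tested. Under the other alternatives (variance, normalization, filter, probe sets) the counts stayed within 1.5 times. Of the 123 called named genes, 96 to 123 stayed called without 1 array and 44 with the acinar covariate. No named call changed sign under the 30 alternatives, 41 were called in each of them, and 91 without each of the arrays in turn. With the replicate number as a block the counts were 785 and 303, and 116 of the 123 stayed called. Deviations of same-numbered Nr4a1 and GFP arrays correlated at -0.295 to 0.078, and 0 of 5 matched best with its own number. These values show no pairing by number, but they cannot exclude that same-numbered arrays share an islet preparation, which the labels do not state. Signal limits dim genes such as Gys2, whose levels lie near the low end of the scale. Called named genes outside the NR4A family had 85 other probe sets. Of these, 75 differed in the same direction as the probe set used and 31 were called, 0 of them in the opposite direction.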
